A study of Mus musculus with 25 samples.

Results

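The AP-1 factors *Fos*, *Fosb*, *Fosl1*, *Fosl2*, *Jun*, *Junb* and *Jund* and the related factor *Atf3* were followed in the *soleus* muscle of 25 mice, of which 12 were at rest and 13 had run on a treadmill. These 8 genes were picked by symbol from the 52636 genes of the RNA count table, and all 8 passed the filter on low counts that left 16340 genes for testing. Mice were 12 weeks old, male or female, on a C57BL/6 background, and all carried *Dnmt3a* flox/flox. WT mice had no Cre. mD3AKO mice, labelled KO, also carried mCK-Cre, a Cre under the promoter of muscle creatine kinase that removes exon 19 of the DNA methyltransferase gene *Dnmt3a* in muscle fibers and heart. Mice with Cre but without floxed *Dnmt3a* were not among the 4 groups. The exercised mice were killed 60 minutes after 30 minutes of running at 16 m/min and 5% incline, and the rested mice after 30 minutes on a sham treadmill. There were 5 WT mice (2 female, 3 male) and 7 mD3AKO mice (3 female, 4 male) at rest, and 7 WT mice (4 female, 3 male) and 6 mD3AKO mice (3 female, 3 male) after exercise. Each mouse gave its own library, so that n counts mice throughout.

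AP-1 is a dimer of basic leucine zipper (bZIP) proteins, in which a Fos protein pairs with a Jun protein or Jun proteins pair with each other. The genes for these proteins, above all *Fos* and *Jun*, are immediate early genes, switched on within minutes of a stimulus by factors that kinases activate on their promoters, and their mRNAs are short-lived. ATF3 belongs to the ATF/CREB branch of the same superfamily, can pair with Jun proteins, and is induced by many kinds of cell stress. In skeletal muscle, contraction is a known inducer of *Fos*, *Jun* and *Atf3* mRNA.

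The libraries held 22671457 to 37431801 counts (median 32189360). *Dnmt3a* lay between 93.4 and 130.5 CPM (counts scaled to the normalized library size) in WT mice and between 34.5 and 53.9 CPM in mD3AKO mice, so that the genotypes did not overlap. The slow myosin gene *Myh7*, a defining marker of *soleus*, lay between 8498 and 20180 CPM in all mice, beside the fast myosin genes *Myh2* at 6882 to 13790 CPM and *Myh4*, the most variable of these 3, at 18.7 to 5208 CPM. The labels name *soleus* as the tissue of every sample, while their extraction protocol covers both *soleus* and quadriceps. Mouse 15, a rested mD3AKO male, had 31.6% of its counts on mitochondrial rRNA, where all others had between 7.68% and 13.0%. All males had mouse numbers from 7 to 19, and the females had numbers from 1 to 6 and from 20 to 25, so that sex and these runs of numbers cannot be told apart. A level measured in whole muscle does not tell fewer cells of a type from less RNA per cell.

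Promoter sequences from RefSeq (GRCm38.p6) were found for 7 of the 8 members, and *Fosl1* had none. The 250 bases before the start sites of *Fos* and *Jun*, and stretches of 30 bases from *Fosb*, *Junb* and *Atf3*, are shown because each holds a short word related to the cAMP response element, which CREB and ATF proteins are known to bind. The words were TGACG, the core of the cAMP response element, with CGTCA on the other strand, and TGACATCA, a variant of the full element, with TGATGTCA on the other strand. The windows end at the start site that RefSeq gives, which is the outer end of the gene model in the count table for *Fos* and *Jun* and not for the other 5 members. The last 7 bases shown for *Atf3* overlap an annotated exon, as do 6 bases of the *Fosb* window, which are not shown, and all 250 bases of the *Fosl2* window. Capitals mark these words, and each line runs 5′ to 3′ on the strand of the gene.
Fos, chr12:85473640-85473889, plus strand: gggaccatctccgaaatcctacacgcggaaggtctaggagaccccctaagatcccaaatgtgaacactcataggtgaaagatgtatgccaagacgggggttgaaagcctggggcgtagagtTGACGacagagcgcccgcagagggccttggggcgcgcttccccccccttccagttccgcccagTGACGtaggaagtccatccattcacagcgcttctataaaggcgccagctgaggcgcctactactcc
Jun, chr4:95052223-95052472, minus strand: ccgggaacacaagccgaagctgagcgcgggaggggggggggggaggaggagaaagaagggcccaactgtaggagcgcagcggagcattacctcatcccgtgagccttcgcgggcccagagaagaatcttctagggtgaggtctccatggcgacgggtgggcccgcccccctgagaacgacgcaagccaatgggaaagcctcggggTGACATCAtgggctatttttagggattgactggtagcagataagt
Fosb, chr7:19310088-19310117, minus strand: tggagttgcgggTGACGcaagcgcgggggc
Junb, chr8:84978837-84978866, minus strand: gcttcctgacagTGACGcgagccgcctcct
Atf3, chr1:191183334-191183363, minus strand: cctggaagctattaatagcattaCGTCAgc

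In *Fos* the word TGACG began 129 and 66 bases before the start, in *Fosb* 60 bases and in *Junb* 106 bases before it. In *Atf3* it lay on the other strand, 7 bases before the start, and in *Jun* TGACATCA began 45 bases before the start. The windows of *Fosl2*, which lies within annotated exons, and *Jund* held neither word. The *Jund* window ends at base 70697738, while the counted gene model starts at base 70698949. The bases just before that model were not searched. Of all 32851 promoter windows of 250 bases, 17.8% held TGACG on either strand and 2.93% held TGACATCA on either strand. The exact word TGACTCA, an AP-1 site, was found on neither strand of the 7 windows and in 4.46% of all windows. Its absence does not mean that the windows lack variants of the AP-1 site. *Fos* also had the word TATAAA, which began 33 bases before the start and was present, on either strand, in 12.4% of all windows. No binding was measured, and the words only describe the sequence.

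The comparison of exercised with rested mice asked how far each member stood from its resting level 60 minutes after running. *Atf3* and *Fos* rose the most of the 8 members, *Fosl2* and *Jun* rose to 2.16 and 2.04 times their mean resting level, and *Fosb*, *Junb*, *Jund* and *Fosl1* did not pass the test. In the fit over the 4 groups (edgeR quasi-likelihood test, p-values adjusted over all genes tested, calls at an adjusted p under 0.05), 4 of the 8 members were called, all of them higher after exercise. Over all genes tested, 10.4% were called in either direction and 5.7% were called higher. The median log2 fold change was 1.07 over the 8 members and -0.00088 over all genes tested. No member had every exercised mouse above every rested mouse, and 0.765% of the genes tested did.

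**Figure D1:**
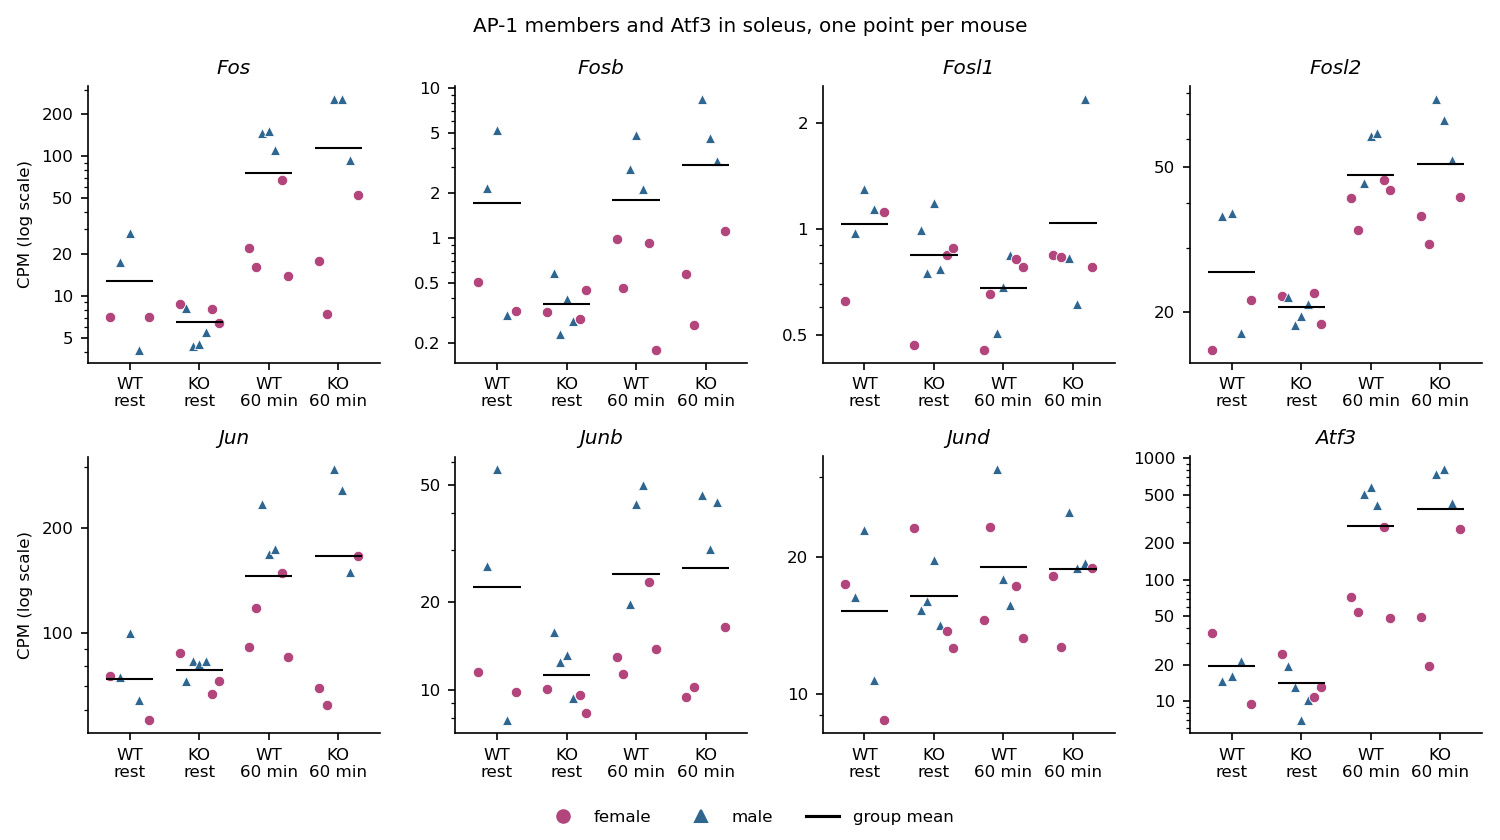
CPM of each member (log scale) in the 4 groups, with 1 point per mouse, circles for females, triangles for males and a line at the group mean. Exercised males lie at the top of the *Fos* and *Atf3* panels, from 93.8 to 259.9 CPM and from 410 to 818 CPM, while *Fosl1* stays at or below 2.34 CPM in every mouse.

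*Atf3* (ENSMUSG00000026628, chr1:191170296-191218039, minus strand) encodes a factor that represses many of its targets as a homodimer. In rested WT mice it was at 36.5, 9.53, 14.7, 16.1 and 21.3 CPM in mice 1, 20, 11, 13 and 14, and in rested mD3AKO mice it ranged from 6.96 to 24.5 CPM with a median of 13.1. After exercise it ranged from 48.6 to 577 CPM in WT mice (median 272) and from 19.7 to 818 CPM in mD3AKO mice (median 345). Of the 13 exercised mice, only the mD3AKO female 6 lay below the highest rested mouse. The mean was 16.4 ± 8.16 CPM at rest (SD, n = 12) and 328 ± 277 CPM after exercise (SD, n = 13), which is 20.0 times higher. The fitted log2 fold change was 4.30 (SE 0.551, adjusted p = 3.2e-06 from edgeR).

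*Fos* (ENSMUSG00000021250, chr12:85473890-85477273, plus strand), the founding member of the family, was at 7.04, 7.07, 17.5, 28.1 and 4.11 CPM in the rested WT mice 1, 20, 11, 13 and 14. In rested mD3AKO mice it ranged from 4.37 to 8.77 CPM with a median of 6.36. After exercise it ranged from 14.0 to 151 CPM in WT mice (median 67.7) and from 7.48 to 259.9 CPM in mD3AKO mice (median 73.5). The exercised females 3, 4, 5, 6 and 25 lay at 7.48 to 21.9 CPM, below the 28.1 CPM of mouse 13, a rested WT male, and the other 8 exercised mice lay above all rested mice. Mean *Fos* was 9.15 ± 6.94 CPM at rest (SD, n = 12) and 93.9 ± 88.7 CPM after exercise (SD, n = 13), with a log2 fold change of 3.35 (SE 0.531, adjusted p = 6.7e-05 from edgeR).

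*Fosl2* (ENSMUSG00000029135, chr5:32135801-32157842, plus strand) encodes FRA-2, a Fos protein without the strong activation domain of FOS. It was at 15.8, 21.7, 36.8, 37.4 and 17.5 CPM in the rested WT mice 1, 20, 11, 13 and 14, and from 18.4 to 22.6 CPM in rested mD3AKO mice (median 21.1). After exercise it ranged from 33.6 to 62.3 CPM in WT mice (median 45.4) and from 30.8 to 77.3 CPM in mD3AKO mice (median 46.9). The mD3AKO groups did not overlap, whereas in WT mice the rested mice 11 and 13 lay within the exercised range. The share of all genes tested without overlap in mD3AKO mice was not counted. The log2 fold change of *Fosl2* was 1.09 (SE 0.153, adjusted p = 1.2e-05 from edgeR), the smallest error of the 4 called members.

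*Jun* (ENSMUSG00000052684, chr4:95049034-95052222, minus strand) encodes the Jun protein that most often partners FOS. It was at 75.0, 55.9, 74.3, 99.6 and 63.9 CPM in the rested WT mice 1, 20, 11, 13 and 14, and from 66.7 to 87.1 CPM in rested mD3AKO mice (median 81.0). After exercise it ranged from 85.2 to 235 CPM in WT mice (median 148) and from 61.9 to 296 CPM in mD3AKO mice (median 157). The exercised females 3, 4, 6 and 25 lay within the rested range, and the other 9 exercised mice lay above it. The log2 fold change was 1.04 (SE 0.206, adjusted p = 9.4e-04 from edgeR). An antisense gene, *Junos*, overlaps 689 bases of *Jun* on the plus strand and had 1222 counts over all libraries against 94351 for *Jun*; the use of strand in the counting is not given in the sources used here.

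The other 4 members did not pass the test in the fit over the 4 groups. *Fosb* (ENSMUSG00000003545, chr7:19302696-19310051, minus strand), which encodes full-length FOSB and the shorter DeltaFosB by splicing, was at 0.51, 0.33, 2.17, 5.25 and 0.31 CPM in the rested WT mice 1, 20, 11, 13 and 14. It ranged from 0.23 to 0.59 CPM in rested mD3AKO mice, from 0.18 to 4.89 CPM in exercised WT mice and from 0.27 to 8.51 CPM in exercised mD3AKO mice. Its log2 fold change of 1.55 (SE 0.547) had an adjusted p of 0.073 from edgeR, on 4 to 267 counts per library. The table holds 1 count per gene and does not separate these transcripts.

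*Junb* (ENSMUSG00000052837, chr8:84974484-84978718, minus strand), whose protein competes with JUN for partners, ranged from 7.84 to 56.7 CPM at rest (median 10.8) and from 9.41 to 49.9 CPM after exercise (median 19.5). The highest value of all 25 mice was in the rested male 13. Its log2 fold change was 0.68 (SE 0.328, adjusted p = 0.23 from edgeR), and the gene *Prdx2* on the other strand, with 165564 counts over all libraries, overlaps its last 351 bases. *Jund* (ENSMUSG00000071076, chr8:70698949-70700616, plus strand), the Jun gene known for steady expression in resting cells, ranged from 8.74 to 23.2 CPM at rest and from 12.7 to 31.3 CPM after exercise, with a log2 fold change of 0.26 (SE 0.153, adjusted p = 0.35 from edgeR). *Fosl1* (ENSMUSG00000024912, chr19:5447703-5455945, plus strand), which encodes FRA-1 and is known as a late member of the family, was at 0.47 to 1.3 CPM at rest and 0.45 to 2.34 CPM after exercise. Its log2 fold change of -0.15 (SE 0.192, adjusted p = 0.75 from edgeR) rested on 11 to 69 counts per library, and was -0.36 (adjusted p = 0.14) without mouse 19.

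Without mice 11 and 13, a repeat chosen after their values were seen, *Fosb* (log2 fold change 2.63, adjusted p = 0.0043 from edgeR) and *Junb* (1.28, adjusted p = 0.0092) passed the test as well, and 6 of the 8 members were called, where 5.12% of all genes tested were called higher. Leaving out mouse 13 alone also gave 6, against 5.41% of all genes. With all mice, *Fosb* passed with DESeq2 (adjusted p = 0.048), with sex as a term (adjusted p = 0.0093 from edgeR) and with the runs of mouse numbers as a term (adjusted p = 0.0080), and *Junb* with sex (adjusted p = 0.043) or the runs (adjusted p = 0.0365) as a term. In the fit over the 4 groups the runs term also sets males apart from females. It therefore contains the sex term, and the fits with sex and with the runs are not separate checks.

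Levels per kilobase of gene model allow the members to be compared with each other. At rest *Jun* had the highest mean, 23.9 ± 3.62 CPM per kb (SD, n = 12), followed by *Jund* at 9.55 ± 2.67, *Atf3* at 7.61 ± 3.79, *Junb* at 6.91 ± 5.99, *Fos* at 3.89 ± 2.95, *Fosl2* at 2.35 ± 0.724, *Fosl1* at 0.539 ± 0.143 and *Fosb* at 0.148 ± 0.234. From *Jund* to *Fosl2*, neighbours in this order lay within 1 SD of each other, while *Jun* and *Fosl1* stood further from theirs. After exercise *Atf3* had the highest mean, 152 ± 129 CPM per kb (SD, n = 13), ahead of *Jun* at 48.7 ± 22.9 and *Fos* at 39.9 ± 37.7. *Jund* at 11.4 ± 3.08 and *Junb* at 11.0 ± 6.64 followed, then *Fosl2* at 5.08 ± 1.45, *Fosl1* at 0.495 ± 0.274 and *Fosb* at 0.381 ± 0.393. Of these neighbours only *Fosl2* and *Fosl1* differed by more than the larger SD of the pair. The order was not the same in each sex. In exercised males *Fos* at 72.4 ± 30.7 stood by *Jun* at 66.9 ± 18.2, and *Junb* at 16.9 ± 5.02 by *Jund* at 12.8 ± 3.46 CPM per kb (SD, n = 6), each pair within the larger SD. In exercised females *Fos* at 12.0 ± 9.69 lay below *Jun* at 33.1 ± 12.4, and *Junb* at 6.04 ± 2.08 below *Jund* at 10.1 ± 2.25 CPM per kb (SD, n = 7), each by more than the larger SD.

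Within the Fos family, *Fos* made up 52.6% ± 8.53 of the summed CPM per kb at rest (SD, n = 12) and *Fosl2* 36.8% ± 6.37. In exercised males the share of *Fos* was 89.6% ± 3.41 (SD, n = 6) and that of *Fosl2* 8.58% ± 2.56, while in exercised females the shares were 65.8% ± 13.8 and 30.2% ± 12.0 (SD, n = 7). The share of *Jun* in the Jun family was 60.6% ± 6.63 at rest and 67.2% ± 5.54 after exercise (SD, n = 12 and 13). The summed Fos family amounted to 0.167 ± 0.055 of the summed Jun family at rest and 0.545 ± 0.297 after exercise, with a highest value of 1.12. After exercise this ratio was 0.319 ± 0.108 in females and 0.809 ± 0.204 in males (SD, n = 7 and 6).

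**Figure D2:**
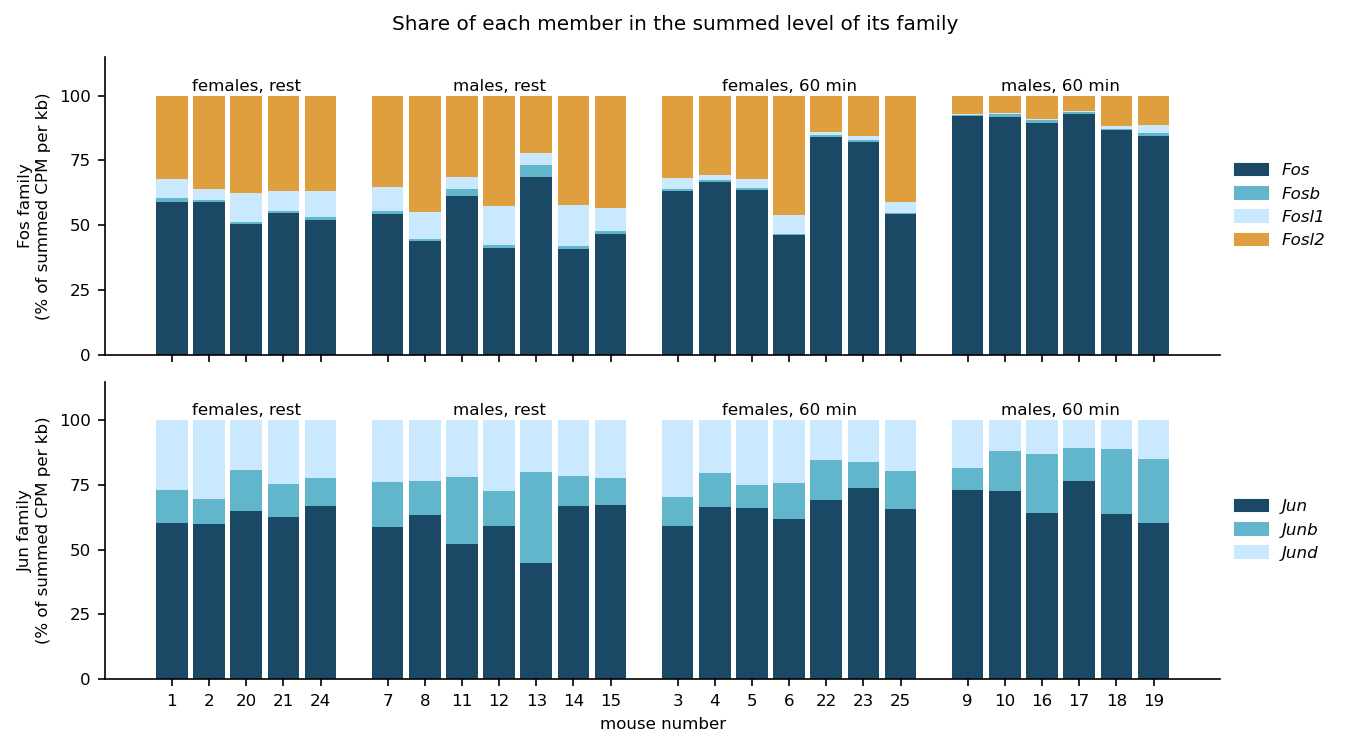
Share of each gene in the summed CPM per kb of the Fos family (top) and of the Jun family (bottom), 1 bar per mouse, grouped by sex and state. The share of *Fos* averages 89.6% in exercised males and 65.8% in exercised females, of which mice 22 and 23 have the highest bars, and the Jun family keeps *Jun* as its largest part in all groups (60.6% at rest, 67.2% after exercise).

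The comparison by genotype asked whether loss of *Dnmt3a* moved these genes. None of the 8 members was called for genotype over both states by edgeR or DESeq2, and 0 had an unadjusted p under 0.05, where 0.269% of the genes tested were called, and none for the interaction of genotype and exercise, where 0% were called by edgeR and 0 genes by DESeq2. At an unadjusted p under 0.05 the interaction gave 403 genes by edgeR and 618 by DESeq2, among them *Fosb* (log2 difference of the responses 2.96, SE 1.08, adjusted p = 1.0 from edgeR, 95% interval 0.74 to 5.18) and *Fosl1* (0.89, SE 0.383, 95% interval 0.10 to 1.68). The value of *Fosb* was 1.90 without mouse 13 and that of *Fosl1* 0.48 without mouse 19. Without mice 11 and 13, 0 members had an unadjusted p under 0.05 for the interaction. For *Atf3* the interval of the interaction ran from -0.98 to 2.87 and for *Fos* from -0.42 to 3.53, so that differences within these bounds were not excluded. Without the 6 mice in which Schwann cell markers were highest (10, 17, 20, 21, 22 and 25), a repeat chosen after the data were seen, the interaction was -0.19 for *Atf3* (0.95 with all mice) and 0.091 for *Fos* (1.55 with all mice). Within each state, contrasts added after the data were seen called none of the members by edgeR or DESeq2, at rest (0.0918% of the genes tested called by edgeR) or after exercise (0.11%). At an unadjusted p under 0.05 stood *Fosb* (log2 fold change -2.19 in mD3AKO against WT, SE 0.831, adjusted p = 1.0 from edgeR) and *Junb* (-0.995, SE 0.471, adjusted p = 1.0) at rest and *Fosl1* (0.60, SE 0.267, adjusted p = 0.85) after exercise. Without mouse 13 the values at rest were -1.13 for *Fosb* and -0.30 for *Junb*, without mice 11 and 13 they were -0.03 and 0.21, and without mouse 19 that of *Fosl1* was 0.19.

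In WT mice alone, 2 members were called higher after exercise, *Atf3* (log2 fold change 3.83, SE 0.794, adjusted p = 0.0040 from edgeR) and *Fosl2* (0.88, SE 0.223, adjusted p = 0.021), where 2.16% of the genes tested were called higher. *Fos* (2.57, SE 0.754, adjusted p = 0.058) and *Jun* (0.98, SE 0.302, adjusted p = 0.074) stood just outside the threshold. Both passed with all mice by DESeq2 (adjusted p = 0.011 and 0.0367), with sex as a term (adjusted p = 0.0118 and 0.0129 from edgeR) and with the runs of mouse numbers as a term (adjusted p = 0.0101 and 0.0131). In mD3AKO mice alone, 5 members were called higher, *Atf3* (4.77, SE 0.730, adjusted p = 9.2e-05), *Fos* (4.12, SE 0.723, adjusted p = 4.9e-04), *Fosb* (3.03, SE 0.791, adjusted p = 0.019), *Fosl2* (1.31, SE 0.209) and *Jun* (1.10, SE 0.279, adjusted p = 0.016), against 3.7% of the genes tested. In mD3AKO mice *Junb* passed as well with sex or the runs of mouse numbers as a term. This made 6 members, against 4.11% and 4.66% of all genes called higher. The counts 2 and 5 do not show a difference between the genotypes, since the interaction called no member. In WT mice *Fosl2* lost its call without any of mice 1, 14, 16, 18 and 20, at log2 fold changes of 0.75 to 0.83. When single mice were left out, 1 to 4 members and 446 to 616 genes were called in WT mice, and without mice 11 and 13 *Atf3* lost its call (3.63, adjusted p = 0.060) while *Fos* passed (3.64, adjusted p = 0.048). In mD3AKO mice *Fosb* and *Jun* lost their call without mouse 10, at log2 fold changes of 2.39 and 0.85 (adjusted p = 0.082 and 0.070 from edgeR). *Jun* also lost it without mouse 17, at 0.93. In females alone *Fosl2* was the single member called in each genotype, where 186 genes were called in WT mice (587 with both sexes) and 184 in mD3AKO mice (984), with *Atf3* at 2.27 in WT mice (adjusted p = 0.68) and 2.77 in mD3AKO mice (adjusted p = 0.32), and *Fos* at 1.75 in mD3AKO mice (adjusted p = 0.42). In WT males alone, where 207 genes were called, *Fosl2* lost its call (0.87, adjusted p = 0.11), while *Atf3* was called and *Fos* (3.03, adjusted p = 0.011) and *Jun* (1.27, adjusted p = 0.011) passed.

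The comparison of males and females was not a factor in the fit over the 4 groups and was made with 8 groups of sex, genotype and exercise. After exercise, *Fos*, *Fosb*, *Fosl2*, *Jun*, *Junb* and *Atf3* were called higher in males than in females, and at rest no member was called. These counts do not show that the sex difference changed with exercise, since the test of that change called no member. *Atf3* ranged from 410 to 818 CPM in exercised males (median 545) and from 19.7 to 272 CPM in exercised females (median 54.5), without overlap. The share of all genes tested without overlap between exercised males and females was not counted. Among the females, mouse 22 (WT) at 272 CPM and mouse 23 (mD3AKO) at 263 CPM stood above the other 5, which were at or below 71.7 CPM. *Fos* likewise ranged from 93.8 to 259.9 CPM in exercised males (median 149.6) and from 7.48 to 67.7 CPM in exercised females (median 17.8), again with mice 22 and 23 highest among the females.

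In the fit, exercised males exceeded exercised females by 2.37 in *Atf3* (log2, SE 0.495, adjusted p = 0.013 from edgeR), by 2.57 in *Fos* (SE 0.440, adjusted p = 0.0018), by 2.72 in *Fosb* (SE 0.455, adjusted p = 0.0015), by 1.51 in *Junb* (SE 0.304, adjusted p = 0.0090), by 1.02 in *Jun* (SE 0.204, adjusted p = 0.0083) and by 0.65 in *Fosl2* (SE 0.144, adjusted p = 0.018). These are 6 of the 8 members, where 1.22% of the genes tested were called higher in exercised males. At rest 2.2% of the genes tested were called between the sexes and 0 of the 8 members, with 2 of them, *Fosb* (1.37 higher in males, SE 0.571, adjusted p = 0.23 from edgeR) and *Junb* (0.98, SE 0.336, adjusted p = 0.13), at an unadjusted p under 0.05. *Junb* was called at rest without the filter on low counts and without mouse 14 (1.21, adjusted p = 0.018), and without mice 11 and 13 the values at rest were -0.15 for *Fosb* and 0.0078 for *Junb*. The sex difference after exercise minus that at rest was 1.34 in *Fosb* (95% interval -0.18 to 2.87) and 0.53 in *Junb* (95% interval -0.39 to 1.45), and both intervals include 0. For *Junb* it was 0.94 without mouse 13 and 0.30 without mouse 14. Without mice 11 and 13 it was 2.87 in *Fosb*, 1.51 in *Junb* and 3.19 in *Fos* (2.18 with all mice). Over both states, 5 members were higher in males, *Fosb* (2.05, SE 0.366), *Fos* (1.49, SE 0.332), *Junb* (1.25, SE 0.228), *Jun* (0.60, SE 0.150) and *Fosl2* (0.49, SE 0.107), against 5.04% of the genes tested, and *Atf3* (1.00, SE 0.363, adjusted p = 0.092) was not called. *Atf3* passed without the filter on low counts (1.00, adjusted p = 0.028), with the females of numbers 1 to 6 alone (1.31, adjusted p = 0.0054), without mouse 22 (1.23, adjusted p = 0.023) and without mouse 23 (1.41, adjusted p = 0.0070), and *Jun* lost its call without mouse 20 (0.55, adjusted p = 0.062). Without mice 11 and 13, mouse 14 was the only rested WT male. The values over both states were then 1.28 for *Fosb*, 0.98 for *Fos*, 0.76 for *Junb*, 0.52 for *Jun* and 0.29 for *Fosl2*. Not all of the 5 calls over both states held in this repeat. Nor did they all hold without the 6 mice with the highest Schwann cell markers or with the females of numbers 20 to 25 alone. Without the 6 mice with the highest Schwann cell markers, *Fosl1* was at 0.78 over both states (0.33 with all mice). Of the other members *Fosb* was at 1.71, *Fos* at 1.38, *Junb* at 1.34, *Atf3* at 0.82, *Fosl2* at 0.52 and *Jun* at 0.39. In exercised mice 2 were then called, *Atf3* at 2.47 (adjusted p = 0.033 from edgeR) and *Fos* at 2.34 (adjusted p = 0.030), where 1.22% of all genes were called higher, and *Fosb* at 2.26, *Junb* at 1.75, *Jun* at 0.74 and *Fosl2* at 0.56 were not.

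The calls depend on which females are used. With the females of numbers 1 to 6 alone, 167 genes were called and the difference after exercise was called for 5 members, with *Atf3* at 3.62 (adjusted p = 1.42e-05 from edgeR) and *Fos* at 3.43 (adjusted p = 7.92e-04) (*Fosl2* had an adjusted p of 0.054), whereas with the females of numbers 20 to 25 alone none of the 8 members was called, with *Atf3* at 1.49 (adjusted p = 0.17 from edgeR) and *Fos* at 1.84 (adjusted p = 0.18). In the latter fit, which kept 3 exercised females, *Fosb* was at 2.42 (adjusted p = 0.15) and *Junb* at 1.16 (adjusted p = 0.28), and 103 of all genes were called. Mice 22 and 23 belong to the latter run, as does mouse 25, which was at 48.6 CPM for *Atf3*. Without mouse 3 *Atf3* was at 2.19 (adjusted p = 0.051) and without mouse 23 at 3.21. *Fosl2* lost its call without any of mice 6, 10, 16 and 18, at log2 differences of 0.58 to 0.62 (0.65 with all mice). The part of the runs of mouse numbers in the difference between the sexes was not tested, as each run holds a single sex.

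Within males, 5 members were called higher after exercise, with log2 fold changes of 5.28 for *Atf3* (SE 0.573), 4.10 for *Fos* (SE 0.478), 2.09 for *Fosb* (SE 0.447, adjusted p = 0.0045 from edgeR), 1.42 for *Jun* (SE 0.205) and 1.29 for *Fosl2* (SE 0.146), where 4.09% of the genes tested were called higher. *Junb* at 0.98 (SE 0.30) had an adjusted p of 0.053. It passed with all mice when no filter was set (adjusted p = 0.0080), with DESeq2 (adjusted p = 0.042) and with the runs of mouse numbers as a term (adjusted p = 0.049), and also without mouse 9 (1.13, adjusted p = 0.025), mouse 13 (1.39, adjusted p = 0.0027) or mouse 22 (0.98, adjusted p = 0.048). Without mice 11 and 13 the values in males were 5.11 for *Fos*, 3.61 for *Fosb* and 1.95 for *Junb*, while *Atf3* was at 5.14. Every exercised male lay above every rested male in *Fos*, *Fosl2*, *Jun* and *Atf3*, as was so for 2.39% of the genes tested. Within females, 3 members were called higher, *Atf3* at 2.53 (SE 0.573, adjusted p = 0.010), *Fos* at 1.92 (SE 0.502, adjusted p = 0.031) and *Fosl2* at 0.96 (SE 0.160, adjusted p = 5.3e-04), against 2.32% of the genes tested, and *Jun* at 0.57 (SE 0.220, adjusted p = 0.22) was not. Only *Fosl2* had every exercised female above every rested female, as had 1.95% of the genes tested. Without the rested female 20, *Fos* and *Atf3* lost their call in females at log2 fold changes of 1.93 and 2.20 (adjusted p = 0.15 and 0.12). *Fos* also lost it without any of mice 1, 21 and 24, where it was at 1.92, 1.94 and 1.86, and without mouse 22 or 23, where it was at 1.53 and 1.40. *Atf3* ranged from 1.69 without mouse 23 to 3.16 without mouse 1. When the females were fitted without the males, neither *Atf3* (2.52, adjusted p = 0.092) nor *Fos* (1.92, adjusted p = 0.073) was called, and with edgeR's robust option *Fos* had an adjusted p of 0.066. *Jun* was at 0.28 without mouse 23. With the females of numbers 1 to 6 alone 0 members and 264 genes were called (604 genes with all females), with *Atf3* at 0.63 (adjusted p = 0.66) and *Fosl2* at 0.92 (adjusted p = 0.093). With those of numbers 20 to 25 alone 3 members and 238 genes were called, *Atf3* at 4.26, *Jun* at 1.16 (adjusted p = 0.032) and *Fosl2* at 1.03 (adjusted p = 0.043), while *Fos* at 2.70 (adjusted p = 0.057) was not.

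**Figure D3:**
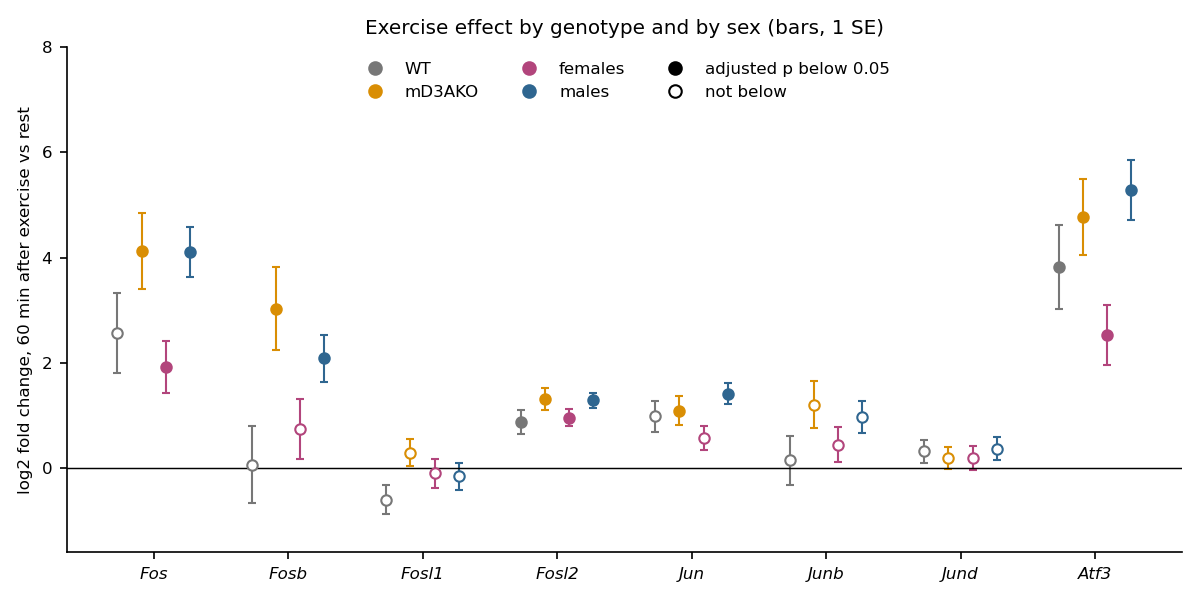
Log2 fold change of each member between exercised and rested mice, in WT and mD3AKO mice (fit with 4 groups) and in females and males (fit with 8 groups), with bars of 1 SE and filled points at an adjusted p under 0.05. *Atf3* lies highest in all 4 sets, from 2.53 in females to 5.28 in males.

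The difference between the responses of males and females was tested directly as an interaction. It was 2.75 for *Atf3* on the log2 scale (SE 0.712, unadjusted p = 8.7e-04, adjusted p = 0.59 from edgeR), 2.18 for *Fos* (SE 0.645, adjusted p = 0.93) and 0.84 for *Jun* (SE 0.296, adjusted p = 1.0). None of the 8 members was called by edgeR or DESeq2, with 3 and 4 of them at an unadjusted p under 0.05, where 0.0551% of the genes tested were called by edgeR. *Atf3* passed without the filter on low counts (adjusted p = 0.0155), with the females of numbers 1 to 6 alone (4.63, adjusted p = 8.9e-05) and without mouse 23 (3.59, adjusted p = 0.011). With the females of numbers 20 to 25 alone the difference was 1.02 for *Atf3* and 1.40 for *Fos* (adjusted p = 1.0 for both) and 0 genes were called, and without mouse 1 it was 2.12 for *Atf3* (adjusted p = 1.0).

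Over the exercised mice the members were compared with each other within each sex, since males and females do not overlap in *Atf3*. Of 56 relations (28 pairs in each sex), 1 had an adjusted p under 0.05 for Pearson's r in an exact 2-sided permutation test. This was *Fos* with *Atf3* in females (r = 0.993, p = 7.9e-04, adjusted p = 0.044; Spearman's coefficient = 0.964, exact p = 0.0028, adjusted p = 0.16; n = 7), and r was 0.977 without the 2 females farthest from the median of *Fos*. In males the same pair had r = 0.972 (exact permutation p = 0.011, adjusted p = 0.15) and Spearman's coefficient = 0.886 (exact p = 0.033, adjusted p = 0.32; n = 6), with r = 0.887 without the 2 males farthest from the median. The relation in females kept r at or above 0.988 without any single mouse, but its adjusted p then rose to between 0.078 and 0.25. *Jun* with *Atf3* had r = 0.914 in females (exact permutation p = 0.0032, Spearman's coefficient = 0.893 with p = 0.012, adjusted p = 0.089 and 0.32; 0.692 without the 2 farthest mice) and r = 0.797 in males (exact permutation p = 0.085, Spearman's coefficient = 0.657 with p = 0.18, adjusted p = 0.30 and 0.47; 0.647 without the 2 farthest mice). At rest, the highest *Fos* levels, 17.5 and 28.1 CPM in mice 11 and 13, stood beside *Atf3* levels of 14.7 and 16.1 CPM, within the range of the other rested mice.

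**Figure D4:**
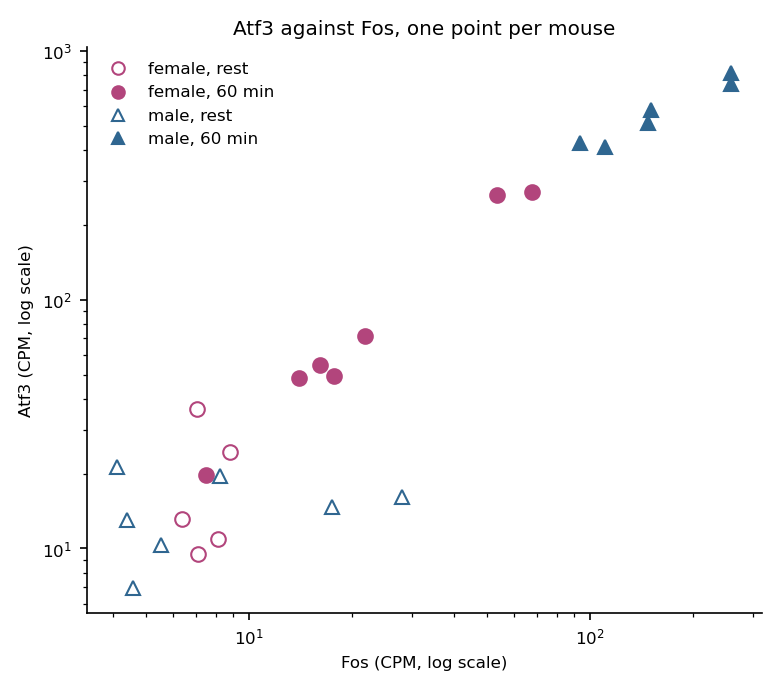
*Atf3* against *Fos* in each of the 25 mice (CPM, log scales on both axes), with circles for females, triangles for males, open symbols for rest and filled symbols for 60 minutes after exercise. The exercised mice run from 7.48 CPM of *Fos* with 19.7 of *Atf3* to 259.9 with 740 and 259 with 818, while the rested males 11 and 13 are high in *Fos* but not in *Atf3*.

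The genes outside the 8 members whose log2 CPM over the 13 exercised mice was most like that of *Fos*, by Pearson's r among genes at a mean log2 CPM of 0 or more, were *Ier5* (r = 0.974), *Btg2* (0.970), *Abra* (0.970), *Otud1* (0.969) and *5031434C07Rik* (0.963). The same 5 genes led the list for *Atf3*, with r from 0.958 to 0.968. These r are descriptions over mice of both sexes. With the mean of each sex taken off, they lay between 0.895 and 0.941 for *Fos* and between 0.877 and 0.922 for *Atf3*. *Ier5* and *Btg2* are immediate early genes, *Abra* encodes an actin-binding protein of striated muscle, and *Otud1* encodes a deubiquitinase. *Otud1* ranged from 12.8 to 45.0 CPM at rest and from 88.0 to 635 CPM after exercise, without overlap, and its log2 fold change was 3.64 (SE 0.333, adjusted p = 1.1e-08 from edgeR).

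Genes around AP-1 were then described by role. Of 20 tested bZIP genes whose proteins can pair with AP-1 proteins or share their sites, 10 rose after exercise and 1 fell, where 5.7% of all genes tested were called higher and 10.4% in either direction, with a median log2 fold change of 0.23 over the list against -0.00088 over all genes tested. The small Maf gene *Maff* went from 5.73 ± 1.43 to 27.1 ± 8.14 CPM (SD, n = 12 and 13; log2 fold change 2.22, SE 0.166), the repressor gene *Nfil3* from 11.6 ± 5.71 to 51.5 ± 11.3 CPM (2.16, SE 0.191), and *Cebpd*, a C/EBP factor gene, from 5.91 ± 2.09 to 21.9 ± 6.01 CPM (1.86, SE 0.163). *Ddit3*, the stress gene that encodes CHOP, was the member of the list that fell, by 0.35 (SE 0.102, adjusted p = 0.025 from edgeR).

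Of 23 tested genes of the MAP kinase cascades that act on AP-1, 1 was called, *Map3k1*, which fell by 0.47 (SE 0.0618), where 10.4% of all genes tested were called in either direction, and the list median was 0.0059. The mRNA levels do not measure kinase activity. Of 13 genes for factors that bind the promoters of AP-1 genes, *Stat3* rose by 0.22 (SE 0.0676, adjusted p = 0.036) and *Elk3*, a ternary complex factor gene, fell by 0.58 (SE 0.0709), and the list median was 0.0010. Of 7 genes for turnover and inhibition of AP-1 proteins, 1 rose, where 5.7% of all genes tested were called higher. This was *Tsc22d3*, the glucocorticoid-induced gene for GILZ, from 91.1 ± 18.8 to 234 ± 26.2 CPM (SD, n = 12 and 13; log2 fold change 1.33, SE 0.0806).

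Of 17 tested immediate early genes outside the family, 9 rose and the others were not called (5.7% of all genes tested were called higher), with a list median of 0.87. *Btg2* went from 44.5 ± 18.2 to 269 ± 177 CPM (SD, n = 12 and 13; log2 fold change 2.58, SE 0.350), *Nr4a1*, an orphan nuclear receptor gene, from 30.6 ± 14.9 to 117 ± 42.0 CPM (1.92, SE 0.229), *Ier5* from 19.7 ± 3.43 to 64.7 ± 43.3 CPM (1.73, SE 0.312) and *Ccn2*, a matricellular protein gene, from 58.1 ± 38.1 to 179 ± 32.7 CPM (1.62, SE 0.186). *Egr1*, which responds to the same kinases as *Fos*, had a log2 fold change of -0.23 (SE 0.518, adjusted p = 0.88 from edgeR), and without mice 11 and 13 it was at 1.33 (adjusted p = 0.067). Over both states, 12 of the 17 were called, all higher in males, as were 5.04% of all genes tested. Without mice 11 and 13, 6 of the 17 were called higher in males, against 3.18% of all genes, and 13 were called higher after exercise, against 5.12%.

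Of 9 tested stress response genes around *Atf3*, 3 rose and 2 fell (10.4% of all genes tested were called in either direction), with a list median of 0.20. *Ddit3* in the bZIP list, *Egr1*, *Atf4* and *Vegfa* are named outside the rule, after their values were seen. *Ppp1r15a*, the GADD34 gene, rose by 0.78 (SE 0.145), the chaperone gene *Hspa5* by 0.60 (SE 0.0835) and *Atf4*, the factor of the integrated stress response that can induce *Atf3*, by 0.32 (SE 0.0587). *Chac1*, an ATF4 target, fell by 0.92 (SE 0.257, adjusted p = 0.018 from edgeR), and *Ddit3* is counted here as well. Of 17 tested genes known as AP-1 targets, 5 rose and the others were not called (5.7% of all genes tested were called higher), with a list median of 0.21. *Hbegf*, a ligand of the EGF receptor, rose by 1.24 (SE 0.278), *Plaur*, the urokinase receptor gene, by 1.17 (SE 0.254), *Osmr*, a cytokine receptor gene, by 0.27 (SE 0.0709) and *Vegfa* by 0.21 (SE 0.0560).

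**Figure D5:**
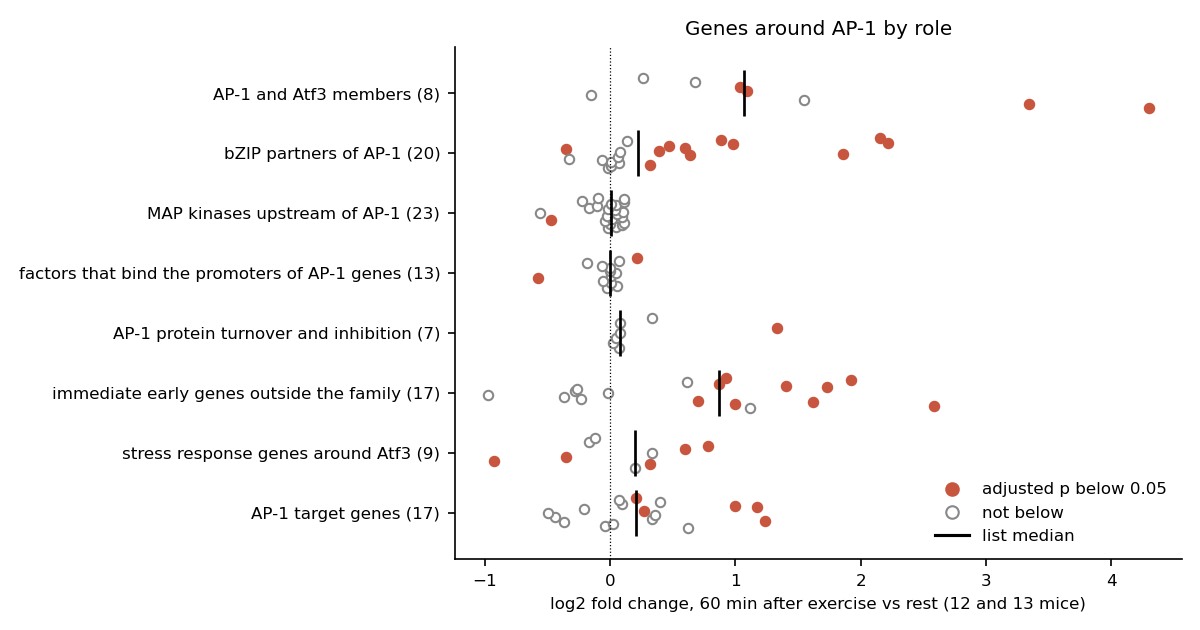
Log2 fold change between exercised and rested mice of each tested gene of the 8 lists (number of tested genes in brackets), filled where the adjusted p is under 0.05, with a bar at the list median. The medians of the 8 members (1.07) and of the other immediate early genes (0.87) lie to the right of those of the MAP kinase genes (0.0059) and of the promoter-binding factors (0.0010).

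Some markers of other cell types moved with exercise, for which 10.4% of all genes tested were called. Of 6 satellite cell markers 3 fell, and their summed level was 16.6 to 21.1 CPM in rested and 10.6 to 17.2 CPM in exercised females, and 13.7 to 19.1 CPM in rested and 11.8 to 13.1 CPM in exercised males. Of 6 endothelial markers 4 fell and 1 rose, with sums of 434.5 to 481 and 384 to 473 CPM in rested and exercised females, and 395 to 533 and 372 to 439 CPM in rested and exercised males. None of 6 macrophage markers was called by edgeR, with sums of 55.2 to 172 CPM at rest and 45.9 to 147 CPM after exercise. The list for slow muscle held 8 genes of slow fibers and also *Acta1* and *Ckm*, which are general to skeletal muscle. Of the 8, 6 were lower in males over both states, among them *Myh7* (log2 difference -0.51, SE 0.0751) and *Tnni1* (-0.40, SE 0.0714), and 0 were higher, while *Ckm* was higher in males (0.30, SE 0.0779), where 8.65% of all genes tested were called for sex. The sum of the 8 was 34998 to 47183 CPM in exercised females and 33123 to 38035 CPM in exercised males. Of 3 tested neutrophil markers 1 fell, as did 1 of 6 markers of smooth muscle and pericytes, and no marker list of fibroblasts, tendon, fat, Schwann cells, T cells (1 of 6 markers tested) or blood had a gene called for exercise.

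Libraries stood apart in the Schwann cell markers, whose sum was 238 to 656 CPM in mice 10, 17, 20, 21, 22 and 25 and 67.0 to 125 CPM in the other 19. The exercised mD3AKO males 10 (292 CPM) and 17 (238 CPM) are also the mice with the highest *Fos* (259.9 and 259 CPM) and *Atf3* (740.3 and 818 CPM), whereas mice 20 and 21 were rested. Mouse 22 (427 CPM) was the highest exercised female in *Fos* (67.7 CPM) and *Atf3* (272 CPM). Mouse 23, among the other 19 with 90.6 CPM of these markers, was the next highest exercised female, at 53.2 CPM of *Fos* and 263 CPM of *Atf3*. The exercised female 25 (382 CPM) was at 14.0 and 48.6 CPM. Without these 6 mice 4 members were called higher after exercise, *Atf3* (log2 fold change 3.78), *Fos* (2.71), *Fosl2* (0.92) and *Jun* (0.74, adjusted p = 0.017 from edgeR), where 3.95% of all genes tested were called higher. Then 3 members were called in mD3AKO mice (2.23% of all genes called higher) and 1, *Atf3*, in WT mice (1.26%). *Fos* was then at 2.76 in mD3AKO mice and 2.67 in WT mice (4.12 and 2.57 with all mice), and *Atf3* at 3.69 and 3.88 (4.77 and 3.83 with all mice). In mD3AKO mice *Fosb* at 1.73 (adjusted p = 0.32) and *Jun* at 0.48 (adjusted p = 0.42) were not called. In males *Fos*, *Fosl2*, *Jun* and *Atf3* were called, against 4.2% of all genes called higher, and *Fosb* at 1.71 (adjusted p = 0.078) was not. In females 1 member was called, *Fosl2*, against 1.27% of all genes called higher, with *Fos* at 1.61 (adjusted p = 0.31) and *Atf3* at 1.67 (adjusted p = 0.32). The part of the markers of other cell types in the levels of the members was not tested beyond these repeats.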

How the data were processed

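RNA was measured in *soleus* of 25 mice, 1 library each (total RNA, rRNA depleted, 75-bp paired ends). The authors deposited 1 table of whole-number counts per gene, raw and not normalized; the submitters' processing notes name FastQC 0.11.5, STAR 2.5.3a, featureCounts 1.5.3 and mm10, the annotation was GENCODE release 15, and whether counting used strand is not given in the sources used here. The gene length in the same table, as deposited, served for CPM per kb. Symbols came from GENCODE release 21. Libraries held 22671457 to 37431801 counts, so that 1 CPM stood for a median of 32.4 counts. Genes passing filterByExpr (minimum count 10, minimum total 15) were tested with the edgeR 4.0.16 quasi-likelihood test (R 4.3.3, TMM), first with 4 groups of genotype and exercise and then with 8 groups that also split by sex. The p-values of genes were adjusted by Benjamini-Hochberg over the 16340 genes tested and those of relations over the 56 relations, with calls under 0.05. SE is the log2 fold change over the root of F. Relations were tested by exact permutation (SciPy 1.17.1) within each sex, over both genotypes. The plan had been a test over all 13 exercised mice, with each sex as a repeat. Alternatives were other size factors, no filter, the robust option, DESeq2 1.42.0, sex or runs of mouse numbers as a term, 1 sex alone, each run of females alone and each mouse left out. Leaving out mice 11 and 13 or the 6 mice above 200 CPM in summed Schwann cell markers, the slow muscle list without *Acta1* and *Ckm*, the sex and genotype contrasts within each state, the counts of genes without overlap and the likeness after sex means were added after the data were seen. Tests were checked on simulated counts, with the spread of each gene set by the trend over all genes. The spread of the members themselves was not simulated.

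Named were all 8 members, at most 4 called genes per list by size, and the 5 genes outside the members most like *Fos* and *Atf3*. Some genes that this rule selects are not reported here. The members and lists were chosen with earlier results of these data known. No library was left out; no 2 replicates held identical values.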

Additional observations from a re-analysis of the deposited data

Results flagged for a closer look

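*Fosl1* was at 2.34 CPM in mouse 19, an exercised mD3AKO male, and at or below 0.845 CPM in the other 5 mice of its group, a gap larger than Dixon's 95% limit allows. Of 32 sets of values (8 members in 4 groups) this was the only 1 with such a sample, where chance gives about 1 in 20.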

How the results depend on the processing

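No paired analysis was possible because mouse numbers are unique and the groups share none. Over the alternatives that leave out no single mouse, 453 values of the members' log2 fold changes named here kept their direction and side of the threshold, 28 newly passed it, 42 no longer passed and 6 reversed. Without mice 11 and 13 *Fosb* reversed for genotype (0.37), *Junb* for genotype at rest (0.21) and *Fos* (-0.61) and *Fosb* (-0.15) for sex at rest, and the genes called were 28 for genotype (44 with all mice), 8 for genotype at rest (15), 1 for sex by exercise (9), 628 for exercise in males (1122), 896 for sex (1413, with 2 members) and 103 for sex at rest (359). Without the 6 mice with the highest Schwann cell markers the genes called were 1074 for exercise, 357 in WT (1 member), 506 in mD3AKO (3 members), 304 in females (1 member), 19 for genotype, 44 for sex by exercise, 587 for sex (2 members) and 207 for sex at rest, 2 members were called for sex after exercise, and *Atf3* reversed for the interaction of genotype and exercise (-0.19). With females alone the genes called were 512 for exercise (1699, with 1 member), 6 for genotype, 4 for genotype at rest, 5 for genotype after exercise (18), 186 for exercise in WT (587, with 1 member) and 184 for exercise in mD3AKO (984, with 1 member), and *Fos* reversed for that interaction (-0.33); with males alone the genes called were 966, 23, 4, 6, 207 and 630. DESeq2 called 81 genes for genotype, 27 for it at rest, 29 after exercise, 19 for sex by exercise, 696 for sex at rest and 506 for sex after exercise (292), and 4 members with 728 genes for exercise in WT. With sex as a term, 72 genes were called for genotype and 4 members with 689 genes for exercise in WT, and with the runs of mouse numbers as a term 97 genes for genotype and 4 members with 792 genes for exercise in WT, with 904 genes for sex, where that term sets females 20 to 25 apart and leaves the males against females 1 to 6. Without the filter 23 genes and 1 member were called for sex by exercise and 1 member for sex at rest. With the females 1 to 6 the genes called were 23 for sex by exercise (1 member), 264 for exercise in females (604, with 0 members), 705 for sex and 167 for sex after exercise. With the females 20 to 25 they were 0 for sex by exercise, 238 for exercise in females and 103 for sex after exercise (0 members), and 2 members and 1315 genes were called for sex. Leaving out single mice gave 1 to 4 members and 446 to 616 genes for exercise in WT, 3 to 5 members and 746 to 1068 genes in mD3AKO and 1 to 3 members and 425 to 650 genes in females, 0 to 1 members and 2 to 17 genes for sex by exercise, 865 to 1769 genes for sex, 201 to 585 genes and 0 to 1 members for sex at rest, and 153 to 347 genes for sex after exercise. Where this left 1 mouse of a sex in a group, it was assumed to vary like the others. The causes were not tested. The lowest counts per library among the members were those of *Fosb* (4 to 267) and *Fosl1* (11 to 69).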

Other observations

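The rested WT males 11 and 13 were also high in immediate early genes outside the AP-1 family, which was noticed after their values were seen. Both were among the highest 2 of the 12 rested mice in 14 of the 17 tested genes, and mouse 13 was the highest in 9. How many of all genes tested had these mice highest was not counted. *Egr1* was at 118 CPM in mouse 13 and 76.7 CPM in mouse 11, and at or below 8.40 CPM in the other 10 rested mice. *Egr2* was at 23.0 and 14.9 CPM in these mice and at or below 2.64 CPM in the others. Among the exercised females, mice 22 and 23 both lay above the other 5 in 7 of the 17 genes. The share of all genes tested with this pattern was not counted either, so that neither count shows something particular to the immediate early genes.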
